A study of Mus musculus with 120 samples.

Results

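Described here are 10 genes of young neurons, chosen by name among the 23154 genes of the cell count table: Tubb3, Tubb4a, Map2, Mapt, Dcx, Stmn2, Stmn3, Gap43, Elavl3 and Elavl4. They were chosen with earlier results of these data known, so their counts beside the shares of all genes tested are description only. They encode cytoskeletal, growth cone and RNA-binding proteins, and all 10 were among the 14629 genes that passed the filter on low counts. The cells were E14/TG2A, a mouse embryonic stem (ES) cell line, and belong to a series of 120 samples on the epigenome of the mouse gastrula. KO D8 and KO D0 were cells that CRISPR-Cas9 editing had left without an enhancer called Enh9E, taken as day-8 neural progenitors (D8) and as undifferentiated ES cells (D0), with 3 libraries each. WT D8 and WT D0 were cells of the same line labelled WT at the same stages, with 2 libraries each. The labels do not say from how many edited clones the KO libraries came, nor whether replicates were separate cultures, so the p-values measure only the spread between these libraries, which may be technical. Where Enh9E lies and which gene it acts on are not in the labels, and the loss of the enhancer was not verified in the RNA.

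A new neuron builds an axon and dendrites on microtubules, and these genes supply or regulate that scaffold. Tubulins form the microtubule wall, Map2 and tau bind along it in dendrites and axons, doublecortin steadies it in migrating neurons, and stathmins bind free tubulin and promote disassembly. The neuronal ELAV-like proteins bind AU-rich stretches of RNA and prolong the life of many neuronal transcripts. Several of these genes, Tubb3 and Dcx above all, are standard markers of a cell that has left the progenitor state.

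The 10 cell libraries held 5.96 to 13.2 M (mega) counts each (median 8.75 M). Levels are given as CPM, counts per M counts of the library, scaled by the trimmed mean of M-values (TMM). Tests used the quasi-likelihood method of edgeR in 1 fit of the 10 libraries, and "rose", "fell", "higher" and "lower" of a called gene mean a Benjamini-Hochberg adjusted p under 0.05 over all genes tested. The stage labels were checked against markers: of 10 neural progenitor markers, 9 rose by D8 in KO cells and 10 in WT cells, and all 10 pluripotent cell markers fell in both. RNA came from whole cultures, in which fewer cells of a type and less RNA per cell cannot be told apart.

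Over 8 days of differentiation, 8 of the 10 genes rose in KO cells and the same 8 rose in WT cells. These were Tubb3, Tubb4a, Map2, Dcx, Stmn3, Gap43, Elavl3 and Elavl4. Mapt and Stmn2, the remaining pair, fell in KO cells and did not pass the test in WT cells. Of all genes tested, 33.4% rose and 31.1% fell in KO cells (64.5% in all), and 27.9% rose and 29.3% fell in WT cells (57.2% in all). The D8 and D0 libraries did not overlap for any of the 8 genes in either genotype, nor for Mapt and Stmn2 in KO cells. Among all genes tested, D8 was higher without overlap for 35.1% and lower for 33.6% in KO cells, and higher for 39.6% and lower for 42.9% in WT cells. The median log2 fold change, D8 minus D0, of the 10 genes was 3.62 in KO cells and 5.44 in WT cells, beside 0.05 and -0.05 for all genes tested. All-gene counts in WT cells depended on scaling: 4080 genes rose and 4288 fell with TMM, against 5089 and 3057 with total counts, which moved the all-gene median by 0.3, while the same number of members, 8, rose with either.

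Gene positions are those of RefSeq on GRCm38.p6, the assembly called mm10. Tubb3 (chr8:123411553-123422015), the beta tubulin isotype that marks neurons, had 87.3, 225 and 216 CPM in KO D8 libraries, against 48.6, 34.6 and 39.9 CPM in KO D0 libraries. In WT cells it had 716 and 513 CPM at D8, against 73.2 and 101 CPM at D0. The stages did not overlap in either genotype, and D8 libraries of KO cells stayed below both of WT cells. Its log2 fold change, D8 minus D0, was 2.11 ± 0.32 in KO cells (SE, adjusted p = 0.000165) and 2.82 ± 0.40 in WT cells (adjusted p = 0.000118). Tubb4a (chr17:57080061-57087600), another beta tubulin isotype, known from neurons and myelinating glia, had 10.5, 4.63 and 12.3 CPM in KO D8 libraries, against 1.19, 2.40 and 3.16 CPM in KO D0 libraries. WT D8 libraries held 46.1 and 38.3 CPM of it, against 0.741 and 0.723 CPM in WT D0 libraries. Tubb4a was therefore above WT in all 3 KO libraries at D0 and below WT in all 3 at D8. It rose by 1.96 ± 0.39 on the log2 scale in KO cells (adjusted p = 0.00116) and by 5.82 ± 0.58 in WT cells (adjusted p = 9.46e-06).

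Map2 (chr1:66175202-66442583), which binds microtubules in dendrites, had 40.9, 38.8 and 56.5 CPM in KO D8 libraries, against 0.595, 0.800 and 0.711 CPM in KO D0 libraries. Its WT levels were 220 and 135 CPM at D8, against 0.617 and 1.30 CPM at D0. D0 levels were near 1 CPM or under in both genotypes, and the D8 libraries lay far above them. The log2 fold change was 5.97 ± 0.32 in KO cells (adjusted p = 1.15e-07) and 7.54 ± 0.39 in WT cells (adjusted p = 1.89e-07), or 8.18 in WT cells without WT D0 replicate 2. Mapt (chr11:104229409-104332090), which encodes tau, the axonal counterpart, went another way, with 4.65, 14.0 and 9.99 CPM in KO D8 libraries, against 56.6, 64.4 and 70.9 CPM in KO D0 libraries. WT cells had 49.7 and 25.8 CPM of Mapt at D8, against 39.5 and 49.3 CPM at D0. Undifferentiated cells thus already held Mapt RNA at 39.5 CPM or more in every library. Mapt fell by 2.74 ± 0.34 on the log2 scale in KO cells (adjusted p = 3.99e-05), while in WT cells the difference was -0.24 ± 0.39 (adjusted p = 0.621) and the stages overlapped.

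Dcx (chrX:143855842-143933396), doublecortin, was close to absent at D0. It had 10.6, 16.7 and 20.6 CPM in KO D8 libraries, against 0, 0.457 and 0.079 CPM in KO D0 libraries, which held 5 counts in all. WT D8 libraries had 116 and 76.8 CPM, against 0.123 and 0.145 CPM in WT D0 libraries, from 1 count each. The increase in KO cells was 6.37 ± 0.52 on the log2 scale (adjusted p = 1.76e-06). Of the 5 D0 counts, 4 came from KO D0 replicate 2, and without it the fitted value was 7.93, against 1 count. For WT cells, with 2 counts at D0, the ratio of D8 to D0 was 701 with a 95% counting interval of 194 to 5800 (edgeR adjusted p = 9.75e-07). Such intervals cover counting error only.

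Stmn2 (chr3:8509527-8561604), a stathmin of growing axons also called SCG10, had 28.2, 69.5 and 69.8 CPM in KO D8 libraries, against 122, 112 and 110 CPM in KO D0 libraries. WT D8 libraries held 223 and 98.3 CPM, against 141 and 187 CPM in WT D0 libraries. Like Mapt, Stmn2 was present before differentiation, at 110 CPM or more in each D0 library. So was Tubb3, which rose, at 34.6 CPM or more. It fell by 1.04 ± 0.34 on the log2 scale in KO cells (adjusted p = 0.0192), a call lost without KO D0 replicate 1 (adjusted p = 0.0519), and differed by -0.04 ± 0.41 in WT cells (adjusted p = 0.948). Stmn3 (chr2:181306459-181314500), a related stathmin, had 53.2, 134 and 73.7 CPM in KO D8 libraries, against 2.23, 4.8 and 4.43 CPM in KO D0 libraries. In WT cells Stmn3 had 125 and 98.1 CPM at D8, against 9.63 and 8.82 CPM at D0. It rose in both genotypes, by 4.46 ± 0.37 on the log2 scale in KO cells (adjusted p = 1.85e-06) and by 3.59 ± 0.42 in WT cells (adjusted p = 3.16e-05).

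Gap43 (chr16:42248552-42340651), a membrane-linked protein of the growth cone, had 15.2, 37.2 and 45.6 CPM in KO D8 libraries, against 0.892, 0.915 and 1.5 CPM in KO D0 libraries. WT D8 libraries had 202 and 37.1 CPM, against 0.247 and 5.35 CPM in WT D0 libraries. As a ratio of the WT replicates it had the widest spread of the 10 genes at both stages, and WT D8 replicate 2 fell inside the range of the KO D8 libraries. The log2 fold change was 4.81 ± 0.86 in KO cells (adjusted p = 0.000523) and 5.47 ± 0.99 in WT cells (adjusted p = 0.00066). With 1 WT library left out it ranged widely in WT cells, from 3.87 without WT D8 replicate 1 and 4.51 without WT D0 replicate 1 to 6.28 without WT D8 replicate 2 and 8.87 without WT D0 replicate 2, which left 2 counts at D0. A fit of the WT groups alone left Gap43 short of the threshold in WT cells, at 5.53 (adjusted p = 0.101).

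Elavl3 (chr9:22015005-22052146), also called HuC, had 17.9, 33.9 and 40.7 CPM in KO D8 libraries, against 3.42, 3.89 and 5.85 CPM in KO D0 libraries. WT D8 libraries held 116 and 121 CPM, against 2.96 and 2.60 CPM in WT D0 libraries. At D8 the WT replicates lay close together and above all KO replicates. The log2 fold change was 2.77 ± 0.30 in KO cells (adjusted p = 1.4e-05) and 5.4 ± 0.41 in WT cells (adjusted p = 1.72e-06). Elavl4 (chr4:110203737-110351939), or HuD, had 19.9, 44.1 and 36.1 CPM in KO D8 libraries, against 0.892, 0.572 and 0.870 CPM in KO D0 libraries. WT D8 libraries held 113 and 89.4 CPM of Elavl4, against 0.370 and 1.16 CPM in WT D0 libraries. Both neuronal ELAV-like genes thus rose in both genotypes, Elavl4 by 5.39 ± 0.39 on the log2 scale in KO cells (adjusted p = 7.44e-07) and by 7.07 ± 0.50 in WT cells (adjusted p = 1.06e-06). The WT value was 6.48 without WT D0 replicate 1 and 8.08 without WT D0 replicate 2.

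**Figure D1:**
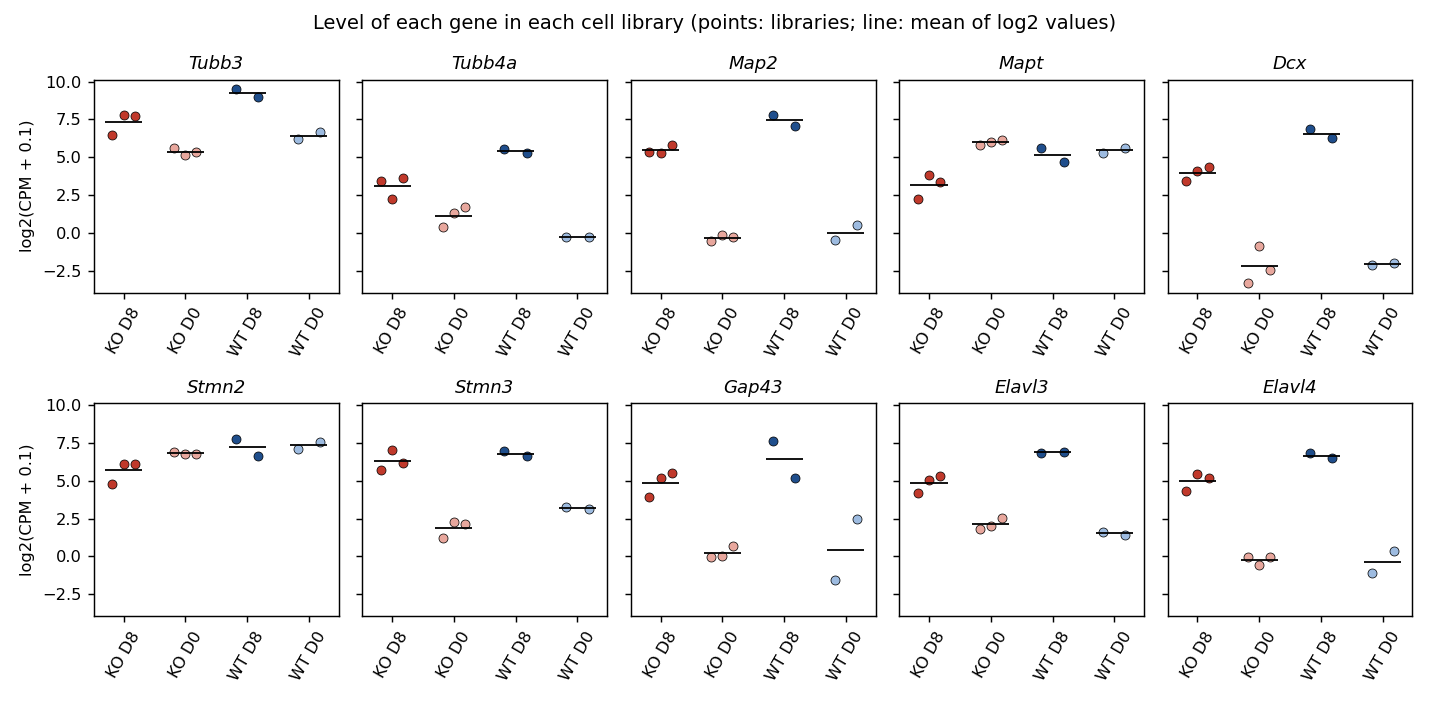
Level of each of the 10 genes in each cell library, as log2(CPM + 0.1), with KO D8, KO D0, WT D8 and WT D0 from left to right; points are libraries and lines the mean of the log2 values. Of the panels, 8 show D8 above D0 in both genotypes, and Mapt and Stmn2 do not. Mapt and Stmn2 stand at 39.5 CPM or more in every D0 library, and Tubb3, which rose, at 34.6 CPM or more.

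**Figure D2:**
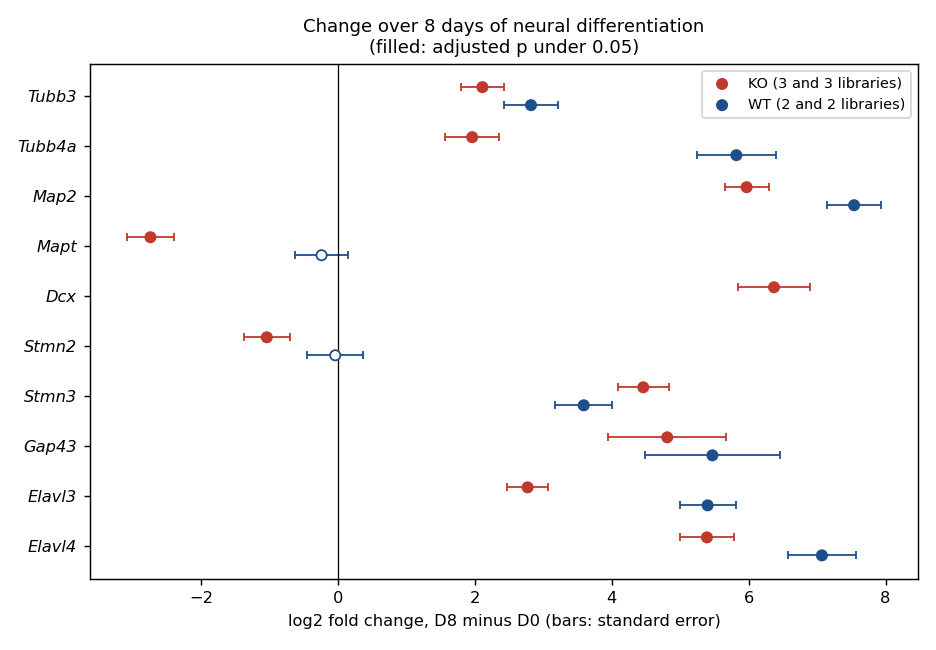
Log2 fold change, D8 minus D0, of each gene in KO and WT cells, with standard errors as bars and filled points for adjusted p under 0.05; Dcx in WT cells is left out because WT D0 held 2 counts. Mapt and Stmn2 lie left of 0 in KO cells, at -2.74 and -1.04, and the other genes lie right of it in both genotypes.

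At D8, 8 of the 10 genes were lower in KO than in WT cells and none was higher. Of all genes tested, 8.24% were lower and 12.5% higher, 20.8% in all. The fold change was largest for Dcx, 6.05-fold lower in KO cells, and 2.87-fold to 4.61-fold for the other 7 called genes: Map2, Tubb3, Tubb4a, Stmn2, Elavl3, Elavl4 and Mapt. The median log2 fold change, KO minus WT, was -1.90 for the 10 genes and 0.02 for all genes tested. The libraries of the genotypes did not overlap for the 8 called genes, where 22.2% of all genes tested were lower and 25.3% higher without overlap. With other scalings the all-gene split turned, from 1834 higher and 1205 lower with TMM to 1450 and 1566 with DESeq2's size factors and 1053 and 1739 with total counts, which moved the all-gene median by -0.2. The number of members lower was 8 under each of these scalings.

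Among the microtubule wall genes, Tubb3 averaged 176 ± 77.3 CPM in KO D8 and 614 ± 143 CPM in WT D8 libraries (SD, n = 3 and 2), a log2 fold change of -1.80 ± 0.33 (adjusted p = 0.00508). Tubb4a averaged 9.13 ± 4.01 CPM in KO D8 and 42.2 ± 5.55 CPM in WT D8 libraries, with -2.20 ± 0.38 (adjusted p = 0.00365). The genes for proteins that bind microtubules were lower as well. Map2 differed by -1.97 ± 0.23 (adjusted p = 0.00111), Mapt by -1.97 ± 0.37 (adjusted p = 0.00512) and Dcx by -2.60 ± 0.32 (adjusted p = 0.00119). Of the stathmins, Stmn2 was lower, at -1.52 ± 0.37 (adjusted p = 0.0168). Stmn3 differed by -0.36 ± 0.33 (adjusted p = 0.454), with KO D8 replicate 2 above both WT D8 libraries. Both ELAV-like genes were lower, Elavl3 at -1.94 ± 0.29 (adjusted p = 0.00211) and Elavl4 at -1.60 ± 0.29 (adjusted p = 0.0047). Gap43 missed the threshold at -1.86 ± 0.68 (adjusted p = 0.0705).

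Single libraries decided some of these calls. The lowest of the 3 KO D8 values came from replicate 1 in 8 genes, and WT D8 replicate 1 was the higher of its pair in 9 genes. Without WT D8 replicate 1, 6 genes were lower: Stmn2, at -0.92 (adjusted p = 0.168), and Mapt, at -1.54 (adjusted p = 0.0502), lost their calls, and Gap43 came to -0.28 (adjusted p = 0.839). Gap43 was called at -2.69 without WT D8 replicate 2 (adjusted p = 0.0273) and also without either WT D0 library, and Stmn3 was called at -0.88 without KO D8 replicate 2 (adjusted p = 0.0221). Over all genes the 3039 calls at D8 ranged from 777 without WT D8 replicate 1 to 5463 without KO D8 replicate 1, with 1277 without WT D8 replicate 2 and 1762 without KO D8 replicate 3.

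**Figure D3:**
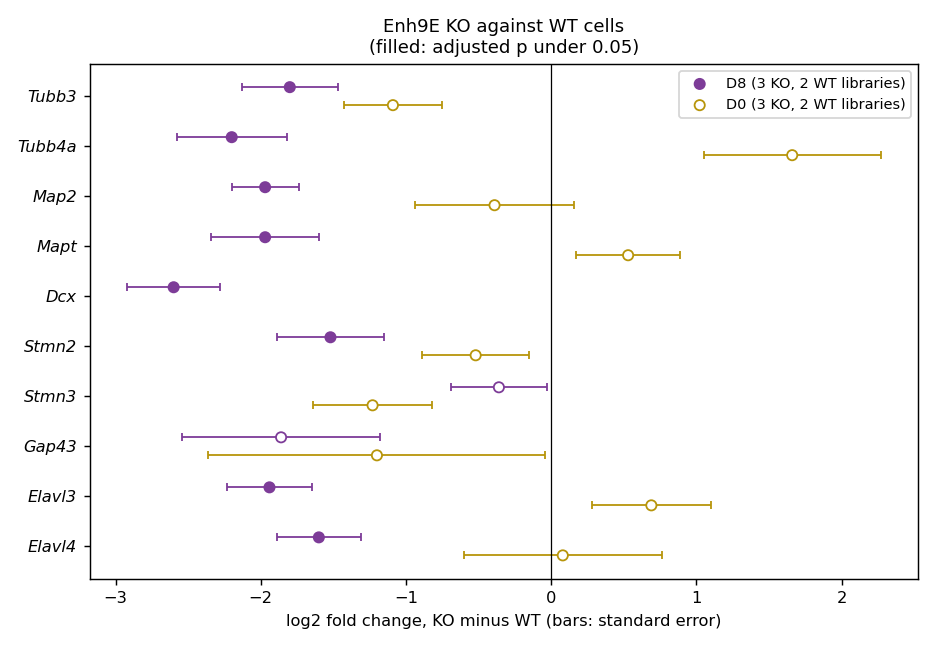
Log2 fold change, KO minus WT, of each gene at D8 and D0, with standard errors as bars and filled points for adjusted p under 0.05; Dcx at D0 is left out because the groups held 5 and 2 counts. All D8 values lie left of 0, between -2.60 and -0.36, and no D0 point is filled.

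At D0 no member was called in either direction by edgeR, where 0.185% of all genes tested were higher and 0.0889% lower in KO cells, 0.273% in all. An unadjusted p under 0.05 was found for 3 of the 10 genes, and for 2089 of all genes tested. Tubb3 differed by -1.09 ± 0.34 (adjusted p = 0.195), Stmn3 by -1.23 ± 0.41 (adjusted p = 0.216) and Tubb4a by 1.66 ± 0.61 (adjusted p = 0.252). These 3, Stmn2, Elavl3 and Mapt had no overlap between genotypes at D0, 6 genes in all, while 23.3% of all genes tested were higher and 21% lower without overlap. Dcx had 5 counts in KO D0 and 2 in WT D0 libraries, a ratio of 1.33 with a 95% counting interval of 0.218 to 14. DESeq2 called Tubb3 and Stmn3 lower, and a fit of the D0 libraries alone called Tubb3, Stmn2 and Stmn3 lower and Mapt higher. Without KO D8 replicate 1 Tubb3 was called lower (adjusted p = 0.0135), and without KO D8 replicate 2 Stmn3 was (adjusted p = 0.0465).

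The difference between genotypes in the 8-day change, KO minus WT, was called for 3 of the 10 genes, all lower in KO cells, where 2.76% of all genes tested were lower and 3% higher, 5.76% in all. Tubb4a differed by -3.86 ± 0.71 (adjusted p = 0.0192), Elavl3 by -2.63 ± 0.50 (adjusted p = 0.0207) and Mapt by -2.50 ± 0.52 (adjusted p = 0.0257). Of the other 7 genes, 6 had negative values that missed the threshold, among them Map2 at -1.57 ± 0.60 (adjusted p = 0.131) and Elavl4 at -1.68 ± 0.74 (adjusted p = 0.178), and Stmn3 was at 0.87 ± 0.53 (adjusted p = 0.32). No call survived every leave-one-out fit. None of the 3 was called without KO D0 replicate 3, WT D0 replicate 1, WT D0 replicate 2 or WT D8 replicate 1, 1 was without KO D0 replicate 2 and 2 were without KO D8 replicate 3. The adjusted p over the 10 such fits ran from 0.00343 to 0.0994 for Tubb4a, from 0.000999 to 0.101 for Elavl3 and from 0.00298 to 0.0974 for Mapt, while each estimate stayed negative. The all-gene split was 439 higher and 404 lower with TMM, 304 and 463 with DESeq2's size factors and 186 and 504 with total counts.

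Most of the genes belong to families with broadly expressed relatives, which were followed in the same libraries at D8. Besides Tubb3 and Tubb4a, 5 beta tubulin genes were tested, of which 3 were lower and 1 higher in KO cells. Tubb2b, abundant in newborn neurons, differed by -1.49 ± 0.18 (adjusted p = 0.00111) and Tubb2a by -1.28 ± 0.28 (adjusted p = 0.0102). Tubb5, a widely used isotype, differed by -0.49 ± 0.15 (adjusted p = 0.0422), Tubb6 was higher at 0.63 ± 0.17 (adjusted p = 0.0278), and Tubb4b was at 0.20 ± 0.13 (adjusted p = 0.292). The near-identical coding sequences of tubulin genes may have split reads between them, since how such reads were counted is not given in the sources used here. In RefSeq, noncoding genes or pseudogenes lie within Map2, Gap43 and Mapt, and none of them has a row in the cell table. Among the ELAV-like genes, the neuronal Elavl2 was lower at -1.07 ± 0.17 (adjusted p = 0.00285), and Elavl1, or HuR, found in most cells, was at -0.15 ± 0.14 (adjusted p = 0.473). Of 4 structural microtubule-associated protein genes besides Map2 and Mapt, 3 were lower, with Map6 at -2.25 ± 0.30 (adjusted p = 0.00147), Map1a at -1.31 ± 0.21 and Map1b at -1.11 ± 0.18, and the broadly expressed Map4 was at -0.12 ± 0.16 (adjusted p = 0.631). The doublecortin relatives Dclk1 and Dclk2 were lower at -1.23 ± 0.25 and -1.34 ± 0.25. Stmn4 was lower at -1.99 ± 0.43 (adjusted p = 0.0104), and Stmn1, a stathmin of dividing cells, was at -0.32 ± 0.27 (adjusted p = 0.419).

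Other neuronal lists were described by count and median only. Of 23 other neuronal cytoskeleton and growth cone genes, 18 were lower in KO D8 cells and 1 higher, with a median log2 fold change of -1.31. This list repeats 8 of the family relatives above, all lower, and without them 10 of 15 were lower and 1 higher, with a median of -1.25. Kif1a and Kif5c, axonal transport motors, were at -1.43 ± 0.14 and -1.44 ± 0.16, and Dpysl5, a collapsin response mediator, was at -1.36 ± 0.17. The higher gene was Nefh, a neurofilament subunit, at 1.56, named after its value was seen. Of 14 tested neuronal RNA-binding genes, 9 were lower and none higher (median -1.08), or 8 of 13 (median -1.1) without Elavl2, given above. Among them were Srrm4, a regulator of neuronal microexons, at -1.99 ± 0.25 and Celf3 at -1.98 ± 0.27. Ptbp2, a splicing repressor of early neurons, was at -0.29 ± 0.22 (adjusted p = 0.374). Of 19 tested proneural and neuronal transcription factors, 12 were lower and none higher (median -1.83), with Myt1 at -2.74 ± 0.30, Scrt2 at -2.70 ± 0.32 and Neurog2, a proneural factor, at -2.33 ± 0.36.

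Most genes of these lists rose over the 8 days. In KO cells 14 of the 23 cytoskeleton genes rose and 3 fell, against 18 and 1 in WT cells. The RNA-binding list had 10 higher and 2 lower in KO cells, against 12 and none in WT cells. Of the proneural factors 16 rose in KO cells and 18 in WT cells. Beside these counts, 33.4% of all genes tested rose and 31.1% fell in KO cells. In WT cells 27.9% rose and 29.3% fell. Rest encodes a repressor that holds neuronal genes silent outside neurons. It averaged 19.8 ± 11 CPM in KO D8 against 154 ± 20.7 CPM in KO D0 libraries, and 23.6 ± 0.558 CPM in WT D8 against 165 ± 11.3 CPM in WT D0 libraries (SD, n = 3 for KO and 2 for WT). Rest fell by 2.96 ± 0.30 on the log2 scale in KO cells (adjusted p = 7.79e-06) and by 2.81 ± 0.36 in WT cells (adjusted p = 6.52e-05). Between genotypes at D8 it differed by -0.25 ± 0.33 (adjusted p = 0.613). Of the 8 genes in the list of Rest and its partners, 1 was lower in KO D8 cells, the corepressor Rcor2 at -0.93 ± 0.14 (adjusted p = 0.00221). This 1 of 8 lies near the 8.24% of all genes tested that were lower at D8.

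Some markers of other cells differed between genotypes at D8, where 12.5% of all genes tested were higher and 8.24% lower in KO cells. Of 10 progenitor markers, 4 were lower and none higher, with Nes at -1.39 ± 0.20 and Notch1 at -1.44 ± 0.19, while Pax6 was at 0.16 ± 0.28 and Sox1 at 0.20 ± 0.39, neither called. Their summed level ran from 1430 to 2160 CPM in KO D8 and from 2860 to 3050 CPM in WT D8 libraries. Of 10 pluripotent cell markers, 3 were higher (Klf4 3.16 ± 0.42, Tbx3 2 ± 0.28, Dppa5a 1.34 ± 0.36), and the sums were 234 to 441 CPM in KO D8 and 87.2 to 177 CPM in WT D8 libraries. Pou5f1, at 0.43 ± 0.48 (adjusted p = 0.55), and Nanog, at 0.51 ± 0.78 (adjusted p = 0.671), were not called, and 9 of the 10 values were positive. Of 10 tested mesoderm and endoderm markers, 5 were higher, among them Sox17 at 3.04 ± 0.48 and Gata4 at 2.84 ± 0.29, transcription factors of early endoderm, Gata4 also of heart mesoderm. The mesoderm markers T, at -1.08 ± 0.59 (adjusted p = 0.202), Mixl1, at -0.88 ± 0.77 (adjusted p = 0.435), and Tbx6, at -0.52 ± 0.47 (adjusted p = 0.448), had negative values and were not called, Tbx6 being named after its value was seen. The whole list had sums of 374 to 824 CPM in KO D8 and 93.4 to 112 CPM in WT D8 libraries. Of 8 tested glial markers, 2 were higher, Pdgfra at 2.42 ± 0.28 and Aldh1l1 at 1.27 ± 0.31, with sums of 156 to 240 CPM in KO D8 and 95.4 to 118 CPM in WT D8 libraries. No marker of these lists was at 0 in all libraries of a D8 group. The 10 genes summed to 288 to 618 CPM in KO D8 and 1230 to 1930 CPM in WT D8 libraries. The neural crest list had 1 of 7 higher, Foxd3 at 2.09 ± 0.67 (adjusted p = 0.0465), while its median was -0.62 and 2 of its 7 values were positive. The fibroblast list had none of 6 called in either direction. Of 8 broadly expressed genes 1 was higher, Ppia at 0.76 ± 0.20, with Gapdh at 0.46 ± 0.17 and Actb at 0.06 ± 0.15. Both 1 of 7 and 1 of 8 lie near the 12.5% of all genes tested that were higher. At D0 the progenitor marker Vim was lower in KO cells, at -1.65 ± 0.26 (adjusted p = 0.0342). The part of these markers in the members' differences was not tested.

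**Figure D4:**
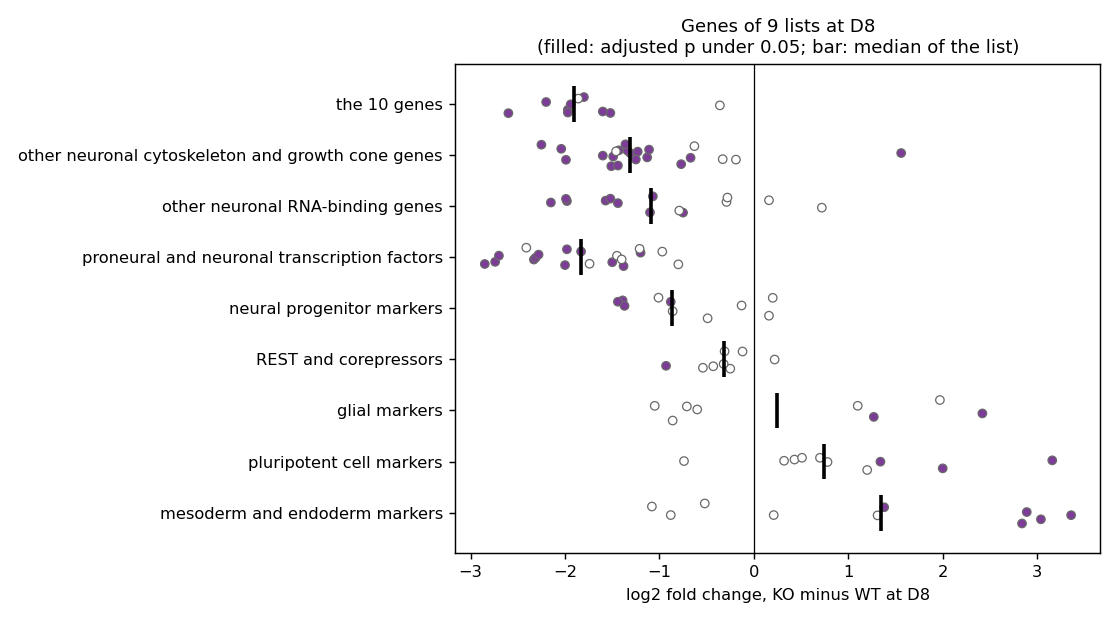
Log2 fold change, KO minus WT at D8, of every tested gene in 9 lists; each point is a gene, filled where adjusted p is under 0.05, and the bar is the list's median. The median is -1.90 for the 10 genes, -1.83 for the proneural factors and 1.34 for the mesoderm and endoderm markers.

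Whole chromosomes also differed between the genotypes. The median log2 fold change, KO minus WT, was 0.45 on chromosome 6 and 0.50 on chromosome 14 at D8, and 0.30 and 0.47 at D0. None of the 10 genes lies on either. Mapt lies on chromosome 11, whose median was 0.24 at D8 and 0.20 at D0, and Tubb3 on chromosome 8 and Dcx on X, with medians of -0.15 and -0.19 at D0. Chromosomes of the other members had medians between -0.07 and 0.10 at both stages. The part of these shifts in the members' values was not tested.

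The genes did not all trace 1 profile. Each gene's log2(CPM + 1) was centred over the 10 libraries and set against the mean of the 10 genes. The mean absolute difference was smallest for Elavl3, at 0.32, and Tubb3, at 0.42, and largest for Mapt, at 2.35, and Stmn2, at 1.84. Of 10384 other genes with an average log2 CPM of at least 3, the nearest to the mean profile were Ndn at 0.19, Scg3 at 0.23, Ctxn1 at 0.27, Chrnb2 at 0.28 and Gpsm1 at 0.29. Ndn, which encodes necdin, a protein of postmitotic neurons, had log2 fold changes, D8 minus D0, of 2.63 in KO cells and 3.54 in WT cells, and of -1.22 between KO and WT at D8. For Scg3, a secretory granule protein, they were 3.92, 4.91 and -1.52.

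RefSeq promoter windows on GRCm38.p6 were matched for 7 of the 10 genes, 11 windows in all, and not for Stmn2, Gap43 and Mapt. The 250 bases before the annotated start, 5′ to 3′ on the gene's strand, are shown for 3 genes that differed in response. Tubb3 rose and was lower in KO D8 cells, Tubb4a had the most negative value in the test of the difference in change, and Stmn3 rose and was not called between genotypes at D8. Capitals mark matches on either strand to the searched motifs, and no marked match overlaps another.
Tubb3 (chr8:123411303-123411552, plus strand): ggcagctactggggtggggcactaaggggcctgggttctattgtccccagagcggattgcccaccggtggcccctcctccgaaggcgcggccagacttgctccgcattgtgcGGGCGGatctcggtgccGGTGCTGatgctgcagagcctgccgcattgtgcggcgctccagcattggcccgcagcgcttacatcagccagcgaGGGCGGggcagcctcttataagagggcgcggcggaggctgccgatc
Tubb4a (chr17:57087601-57087850, minus strand): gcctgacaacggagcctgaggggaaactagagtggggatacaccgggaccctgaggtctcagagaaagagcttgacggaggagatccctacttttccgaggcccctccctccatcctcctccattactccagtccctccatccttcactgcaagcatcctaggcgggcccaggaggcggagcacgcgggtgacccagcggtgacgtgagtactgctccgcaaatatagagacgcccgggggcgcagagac
Stmn3 (chr2:181314501-181314750, minus strand): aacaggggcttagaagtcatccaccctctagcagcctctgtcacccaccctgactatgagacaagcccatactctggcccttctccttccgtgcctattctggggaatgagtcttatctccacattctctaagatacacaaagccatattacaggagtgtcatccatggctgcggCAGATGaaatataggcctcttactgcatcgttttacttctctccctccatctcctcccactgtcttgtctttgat
The motifs were the E-box CAGNTG of proneural factors, parts CAGCACC and GGACAGC of the left and right sides of the RE1 element bound by REST, the GC box GGGCGG and the TATA box TATAAA. The Tubb3 window held the GC box at 2 places and the left RE1 part on the other strand, as GGTGCTG. The Stmn3 window held 1 E-box, CAGATG, and the Tubb4a window none of the 5 motifs. Over the 7 genes, 3 had an E-box (Stmn3, Elavl3 and Elavl4), 3 a GC box (Map2, Tubb3 and Elavl3), 2 a TATA box (Dcx and Elavl3), 1 the left RE1 part (Tubb3) and 1 the right (Map2). By window, 5 of the 11 held the E-box, 3 the GC box, 3 the TATA box, 1 the left and 1 the right RE1 part. The windows of Dcx overlap, as do some of Elavl4, so the same match can count more than once. Of 32851 windows of the same length, 44.8% held the E-box, 32.7% the GC box, 12.4% the TATA box, 5.73% the left and 5.28% the right RE1 part. A match is a description of letters in the window and not a bound site.

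The genes could also be followed in 18 RNA libraries of dissected embryos of the ICR strain, with 2 libraries for each of 9 groups from embryonic day 6.5 (E6.5) to E7.5. The dissected parts were the epiblast (Epi), regions named A, P and AM of the embryonic part, and the extra-embryonic part (ExE). These libraries came from another table, scaled separately, and another library kit, so levels are not compared with those of the cells by any test. More than 3 counts were found in all 18 libraries for Map2 and Tubb3, and in 11 to 17 for the other genes.

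Region A at E7.5 held the highest levels for several genes. Tubb4a had 84.2 and 102 CPM in E7.5 A libraries, against 0.875 and 0.573 CPM in E7.5 ExE libraries. Stmn2 had 38.3 and 40.4 CPM in E7.5 A libraries, against 7.24 and 3.63 CPM in E7.5 ExE libraries. For Tubb3 the values were 27.5 and 34.7 CPM in E7.5 A libraries, against 3.50 and 2.86 CPM in E7.5 ExE libraries. Levels in E7.5 P libraries were nearer to those of A. They were 45.3 and 46 CPM for Tubb4a, 25 and 17.2 CPM for Stmn2, and 23.1 and 22 CPM for Tubb3. Tubb3, Tubb4a, Stmn2, Stmn3 and Elavl3 were higher in both E7.5 A libraries than in any other embryo library. The share of all genes with this order was not counted, so it cannot be read as a trait of these genes. Dcx stayed at or under 2.07 CPM, Elavl4 at or under 2 CPM and Mapt at or under 2.54 CPM in every embryo library. Stmn3 had 8.25 and 9.65 CPM and Elavl3 4.66 and 6.15 CPM in E7.5 A libraries. Map2 was at 16.7 CPM in 1 of the E7.0 ExE libraries and at 0.656 CPM in the other.

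**Figure D5:**
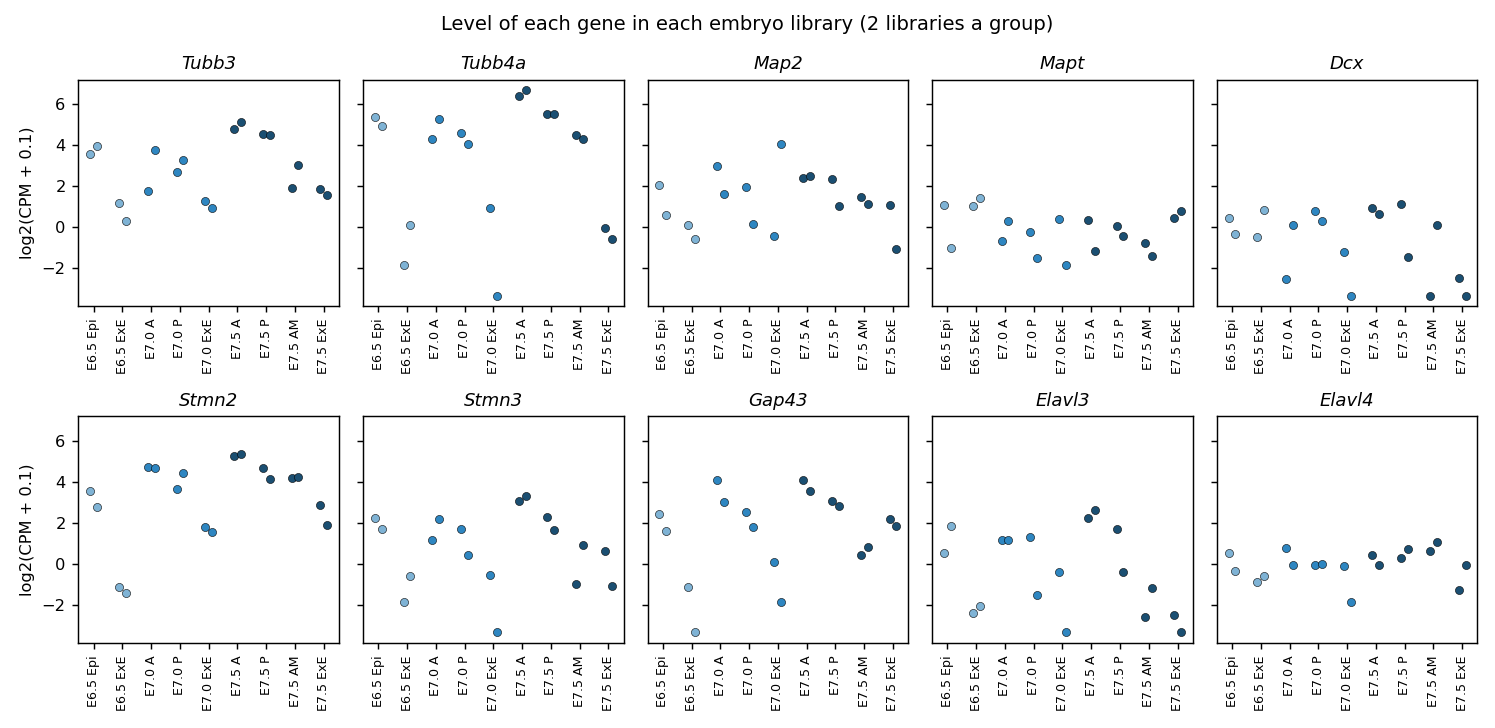
Level of each gene in each embryo library, as log2(CPM + 0.1), by stage and dissected part; points are libraries, 2 a group. Tubb4a, Stmn2 and Tubb3 are highest in E7.5 A, at up to 102, 40.4 and 34.7 CPM, and Dcx, Elavl4 and Mapt stay low throughout.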

How the data were processed

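The authors deposited counts per gene, whole numbers, one table holding cells and another embryos. Per the submitters' processing notes, build mm10 and the tools CASAVA 1.8, TopHat2 2.0.9 and BWA were used, with no role given. The names of the deposited counts hold the words dexseq and refseq. Not given in the sources used here are the settings of the counter, the release of the annotation and the strandedness. Per the labels, Trizol was used for RNA of the cells and a NEBNext kit for their libraries. Columns were matched to samples by name, and 6 embryo columns that matched none were not used. Of the cell table's names, 27 had been turned into dates and were left as they stood. Embryo libraries held 5.15 to 17.1 M counts.

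Genes passing filterByExpr (at least 10 counts, 15 in total) entered the test of edgeR 4.0.16 (R 4.3.3; robust quasi-likelihood fit, TMM, no replicate block). The groups of cells shared 1 fit, with 5 contrasts, and each SE is the log2 fold change over the square root of F. The test was checked on simulated counts. Replicates differed beyond sampling noise, with a chi-square per degree of freedom of 3.78 to 63.9 in 8 pairs. The members and lists were chosen with earlier results of these data known. All members are named; from each other list, up to 4 called genes with the smallest p and up to 2 not called, with Rest always, and the 5 genes nearest the members' mean profile. Alternatives were the tool DESeq2 1.42.0, its size factors within edgeR, scaling by total counts, 2 other filters, separate fits per comparison, the replicate number as a block and omission of each library in turn. Embryo levels were not tested. No genome was used, so gene levels were not compared per length.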

Additional observations from a re-analysis of the deposited data

Results flagged for a closer look

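In all, 3 genes differed between genotypes in their 8-day change by the test of that difference (edgeR, KO minus WT, log2): Tubb4a at -3.86, Elavl3 at -2.63 and Mapt at -2.50. Tubb4a rose less in KO than in WT cells, Elavl3 likewise, and Mapt fell in KO cells and was not called in WT cells. Each call was lost in at least 4 of the 10 fits that left out a library, while the values moved little, from -4.2 to -3.59 for Tubb4a, -2.95 to -2.36 for Elavl3 and -2.95 to -2.05 for Mapt.

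The embryo libraries lay outside the main comparisons, and every member had more than 3 counts in at least 11 of the 18. The highest level among the 18 libraries was 102 CPM for Tubb4a, 40.4 CPM for Stmn2, 34.7 CPM for Tubb3, 16.7 CPM for Map2 and 16.7 CPM for Gap43. It was 9.65 CPM for Stmn3, 6.15 CPM for Elavl3, 2.54 CPM for Mapt, 2.07 CPM for Dcx and 2 CPM for Elavl4. Of these, the Map2 maximum came from 1 of the E7.0 ExE libraries, whose replicate held 0.656 CPM.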

How the results depend on the processing

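Counts at D0 were few for several members, with 2 in WT D0 libraries for Dcx, 11 each for Tubb4a and Elavl4, 14 for Map2 and 39 for Gap43, which limits the precision of their folds. Among members the counts of rises by D8 stayed at 8 under every setting, apart from 7 in WT cells with only the groups compared. Of the 50 member results, 29 were called. Under other settings these gave 200 values, of which 197 kept the call and 3 lost it, and with a library left out 290, of which 272 kept it and 18 lost it. None of these changed sign. The 21 results not called gave 137 and 210 values, with 6 calls gained in each set and 7 and 12 changes of sign, among them Gap43 at D0, at -1.2 and at 2.15 without WT D0 replicate 2. A fit of only the groups compared gave 6 members lower at D8 (Stmn2 and Mapt lost), 1 higher and 3 lower at D0, and 705 genes called at D8 against 3039, and 2033 at D0 against 40. DESeq2 gave 2 members lower at D0, 444 genes called at D0 and 1753 for the difference in change against 843. At D0 total counts gave 25 genes and no filter 70. Leaving out 1 library gave 777 to 5463 genes at D8, 3 to 403 at D0 and 7 to 3591 for the difference in change, a shift of over 1.5 times in 4, 10 and 9 of the 10 fits. The lowest came without WT D8 replicate 1, KO D0 replicate 3 and WT D0 replicate 2, and the highest, in each case, without KO D8 replicate 1. It gave 1 to 2 members lower by D8 in KO cells, 6 to 9 lower at D8, 0 to 1 lower at D0 and 0 to 3 lower for the difference in change; a group left with 1 library is assumed to vary like the others. Whether replicate numbers pair the libraries was not settled. Between stages same-numbered ones correlated at -0.05 to 0.07, against -0.15 to 0.09 for different numbers. Between genotypes same-numbered ones correlated at 0.15 and 0.19 at D8 and 0.23 and 0.13 at D0, from 2 pairs each. With 2 WT libraries centred on their mean, different-numbered ones necessarily gave these values with a minus sign, so pairing cannot be judged from them. With the replicate block, 6 genes were called at D0 against 40, and the member counts were 8 and 2 by D8 in KO cells, 8 and 0 in WT cells, 8 lower at D8, 0 at D0 and 3 for the difference in change. Total counts moved all 40 chromosome medians beyond the spread of the KO libraries. The all-gene median itself moved, by -0.2 at D8 and 0.05 at D0, and such a shift carries every chromosome with it. Whether chromosomes moved against each other was not tested. Shares of isotypes within gene families were not run, because no coding lengths were used here. The cause of these differences was not tested.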
